A study of Homo sapiens with 22 samples.

Results

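The genes described here are the 9 of the EGF receptor module that were listed for study by name: the ligands AREG, EREG, HBEGF, TGFA and NRG1, the receptors EGFR, ERBB2 and ERBB3, and the inhibitor ERRFI1. They are 9 of the 20668 gene symbols in each expression file, and 9 of 9 passed the filter on low values that left 12713 genes for testing. They were chosen by name and not by a threshold, but with earlier results of these data known. Counts of members called are therefore set beside the shares of all genes as a description, and are no test of an excess. The study measured RNA in MDA-MB-231, a cell line derived from a triple-negative breast adenocarcinoma, to ask which genes the glucocorticoid receptor (GR) regulates under different ligands. The 10 RNA-seq samples form 5 groups of 2 replicates, and all cells were held in phenol red-free medium with charcoal-stripped serum before treatment. The vehicle group received no GR ligand. The Dex 2 h and Dex 4 h groups received 100 nM dexamethasone, a synthetic glucocorticoid, and the CpdA 2 h and CpdA 4 h groups received 10 μM compound A, a plant-derived compound described as a selective GR modulator. The 2 ligands were thus given at different doses, and any difference between them is between these treatments. Results come from 1 established line in culture, and RNA per gene was measured, not protein, ligand shedding or receptor phosphorylation.

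EGF family ligands are made as precursors anchored in the cell membrane, and membrane proteases such as ADAM17 cut them free. AREG, EREG, HBEGF and TGFA bind EGFR, whereas NRG1 binds ERBB3 (and ERBB4). ERBB2 has no known ligand of its own and acts as a dimer partner, and the receptors signal through RAS, RAF, MEK and ERK. ERRFI1 (also called MIG6) binds the kinase domain of active EGFR and inhibits it, and is known as a glucocorticoid-responsive gene. Transcripts of several ligands, HBEGF and AREG among them, are known to be raised in turn by ERK signalling, which closes an autocrine loop.

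Promoter sequences are shown for the 4 members whose level differed most between the groups: ERRFI1, which rose with Dex, HBEGF, the ligand that fell most, and EREG and AREG, which neighbour each other. Each is the 250 bases before the annotated start, taken from a RefSeq promoter table (GRCh38.p14) and found letter for letter on GRCh37. ERRFI1 lies at chr1:8064464-8086369 on the minus strand, and its window is chr1:8086370-8086619, with the GC box GGGCGG in capitals. HBEGF lies at chr5:139712428-139726188 on the minus strand, and its window is chr5:139726189-139726438, with 5 GC box matches (GGGCGG or its complement CCGCCC, of which 2 overlap by 1 base) in capitals. EREG lies at chr4:75230862-75254466 on the plus strand, and its window is chr4:75230612-75230861, with the short CRE motif TGACG and the TATA motif TATAAA in capitals. AREG lies at chr4:75310853-75320722 on the plus strand, downstream of EREG, and its window is chr4:75310603-75310852, with the full CRE TGACGTCA and TATAAA in capitals.
ERRFI1: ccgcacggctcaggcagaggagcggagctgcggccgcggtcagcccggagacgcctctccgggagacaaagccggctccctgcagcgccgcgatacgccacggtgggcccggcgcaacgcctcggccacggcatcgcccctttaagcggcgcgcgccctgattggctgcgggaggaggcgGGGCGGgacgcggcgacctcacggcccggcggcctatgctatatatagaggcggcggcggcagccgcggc
HBEGF: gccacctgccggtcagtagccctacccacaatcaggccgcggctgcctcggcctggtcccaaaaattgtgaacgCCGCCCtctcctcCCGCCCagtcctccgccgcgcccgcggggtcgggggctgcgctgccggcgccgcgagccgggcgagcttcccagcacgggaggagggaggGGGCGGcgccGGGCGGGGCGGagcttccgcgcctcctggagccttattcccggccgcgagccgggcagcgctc
EREG: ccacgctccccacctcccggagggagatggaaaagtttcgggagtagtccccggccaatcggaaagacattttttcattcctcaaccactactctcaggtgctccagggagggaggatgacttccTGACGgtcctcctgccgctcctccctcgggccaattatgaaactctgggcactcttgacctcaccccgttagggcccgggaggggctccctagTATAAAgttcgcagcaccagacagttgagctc
AREG: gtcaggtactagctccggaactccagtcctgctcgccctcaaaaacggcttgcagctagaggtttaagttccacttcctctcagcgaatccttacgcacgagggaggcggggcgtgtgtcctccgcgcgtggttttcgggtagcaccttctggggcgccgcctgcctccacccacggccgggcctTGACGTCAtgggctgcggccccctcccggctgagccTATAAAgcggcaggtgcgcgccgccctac

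The windows of 7 members, all but ERBB3 and NRG1, were searched, on both strands, for 7 motifs. The palindromic glucocorticoid response element (GRE), AGAACA and TGTTCT with 3 bases between them, was in none of these windows. It was in 0.00285% of 35116 RefSeq windows of the same length (1 window), so its absence from 7 windows could hardly come out otherwise. Either of its arms alone was found in TGFA, 46 to 41 bases before the start, and in 12.4% of all windows. The CRE, the binding motif of the CREB family, was found in AREG at 65 to 58 bases before the start and in 1.65% of windows. The short CRE motif, which the full CRE contains, was found in AREG, EREG and TGFA and in 21.2% of windows. The AP-1 motif TGANTCA was found in EGFR (2 matches) and ERBB2 (1 match) and in 6.57% of windows. A GC box was found in ERRFI1, TGFA, AREG, HBEGF and EGFR and in 42.6% of windows, and TATAAA in EREG, AREG and EGFR and in 10.7%. Such a match describes the letters in the window and is no measurement of binding.

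The deposited values are RPKM, read counts scaled to transcript length and to the mapped reads of each sample. Read totals are not given in the sources used here. The RPKM step made by a single read gave relative depths of 1.0 (vehicle replicate 1) to 1.21 (Dex 2 h replicate 2), with every treated sample deeper than the vehicle samples. Across genes, Spearman's rho between duplicates was 0.985 to 0.987. The Dex targets TSC22D3 and FKBP5 rose with Dex at 2 h by 5.06 and 3.50 on the log2 scale and at 4 h by 5.10 and 4.98. With CpdA, 1 of these 2 was called higher at 2 h and 2 of 2 at 4 h, with median changes of 0.17 and 0.28. The shares of all genes called higher with CpdA were 1.89% and 6.76%. The mesenchymal markers VIM, CD44, CAV1 and AXL had RPKM of at least 120 in every sample, ESR1 and PGR at most 0.00484, and CDH1 at most 0.465. Of the epithelial markers, EPCAM (8.02 to 10.6 RPKM) and GATA3 (at least 3.75) were detected in every sample and FOXA1 reached at most 0.225. GATA3 fell at Dex 2 h (−0.36), CpdA 2 h (−0.39) and CpdA 4 h (−0.48) and rose at Dex 4 h (0.26), and its part in the results was not tested. The leukocyte gene PTPRC and the endothelial gene PECAM1 had at most 0.063 and 0.324 RPKM.

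The vehicle replicates need a remark, since every treatment was compared with them. The labels give them no time, whereas the column headings of their deposited tables name replicate 1 for 2 h and replicate 2 for 4 h. They were grouped as the labels have them, and replicate and time cannot be told apart. On the log2(RPKM + 0.1) scale, HBEGF was 0.90 higher in vehicle replicate 1 than in replicate 2, a larger difference than in 98.9% of the genes kept. ERRFI1 was 0.52 higher in replicate 1 (larger than in 96.8% of genes), EREG 0.48 higher (96.3%), and NRG1 0.51 lower (96.7%). AREG differed by 0.05. Changes against vehicle are therefore given below also against each vehicle sample alone wherever that alters the outcome. With 1 vehicle sample left, that sample is assumed to vary as the other groups do.

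In vehicle the members spanned a wide range of levels per transcript length. ERRFI1 was the highest with a mean of 168 RPKM, above 98.1% of the genes kept, followed by HBEGF (64.6), EGFR (34.0), ERBB2 (18.2), TGFA (17.1), NRG1 (6.21), EREG (4.61), AREG (1.64) and ERBB3 (0.753, above 7.02% of genes). The samples of TGFA and ERBB2 overlapped in level, as did those of EREG and NRG1, and the other neighbours in this order did not. Among the remaining family genes, 6 of 7 were in the files and BTC alone passed the filter, with a median of 0.568 RPKM. EGF was at 0.191 to 0.489 RPKM, NRG2 at 0.0622 to 0.258 and NRG4 at 0.0157 to 0.0984, and EPGN and ERBB4 reached at most 0.0399 and 0.00896. BTC was not called in any comparison with vehicle. NRG3 was not analysed here.

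**Figure D1:**
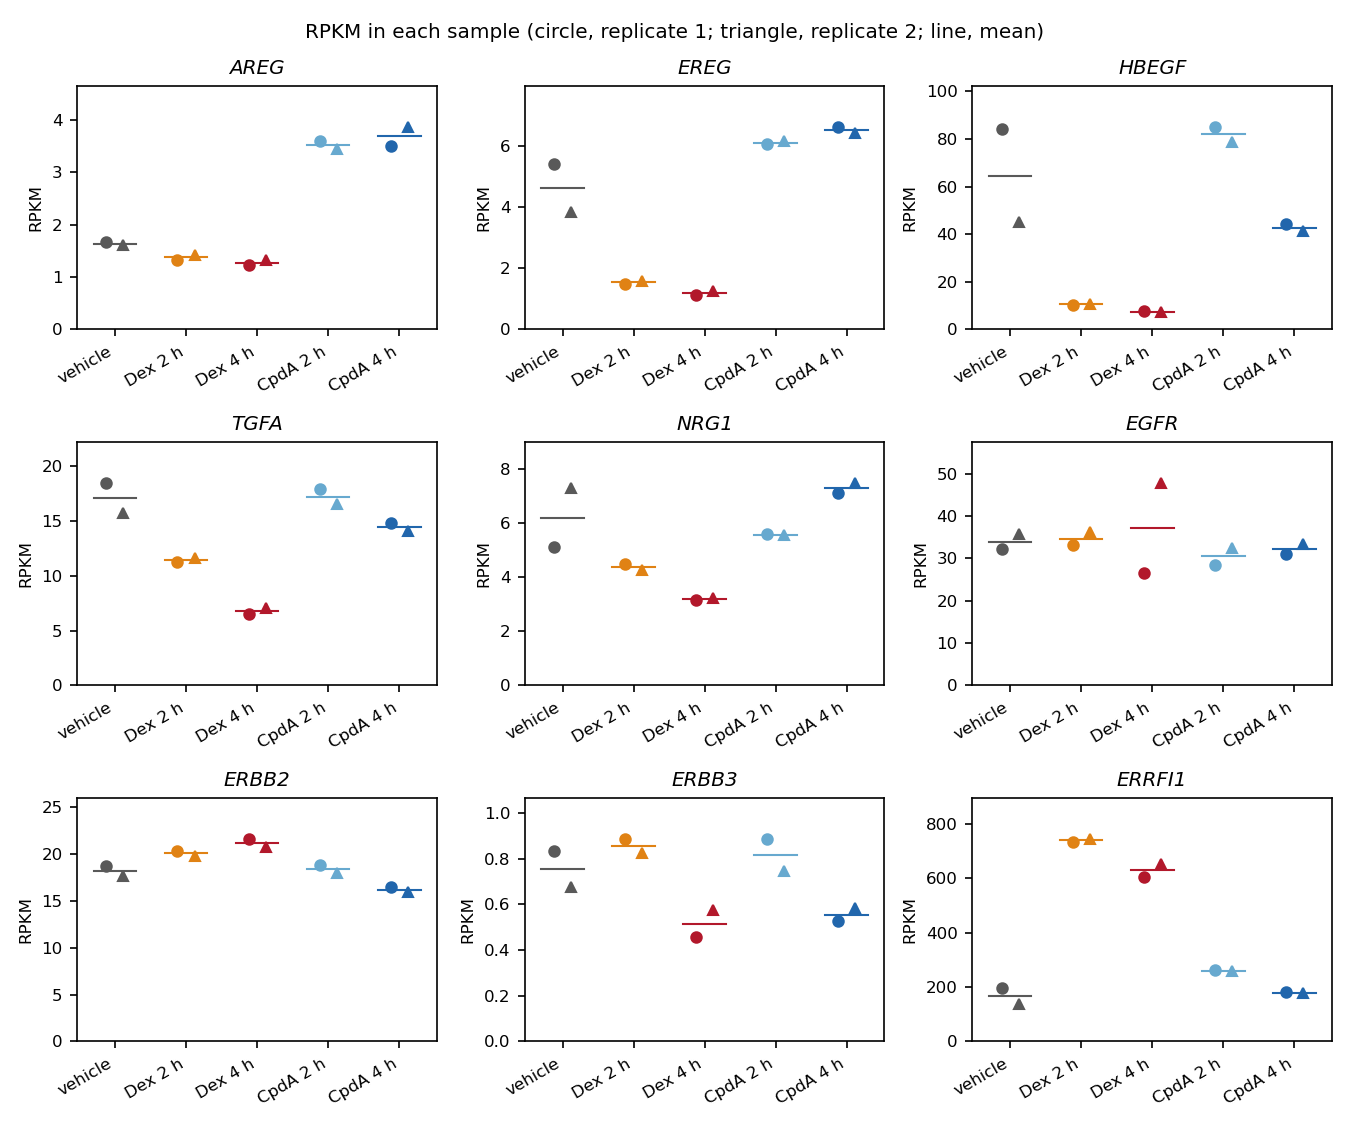
RPKM of each of the 9 genes (vertical axes, linear from 0, a scale for each gene) in the 10 samples by group (horizontal axes), with circles for replicate 1, triangles for replicate 2 and lines for the group mean. Both Dex groups lie below both vehicle samples for AREG, EREG, HBEGF, TGFA and NRG1 and above them for ERRFI1, both CpdA groups lie above vehicle for AREG, and the Dex 4 h replicates of EGFR lie far apart.

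Dex lowered ligand transcripts and raised the inhibitor. At 2 h, HBEGF, EREG and TGFA fell and ERRFI1 rose, and at 4 h AREG, EREG, HBEGF, TGFA and NRG1 fell and ERRFI1 and ERBB2 rose (limma, adjusted p under 0.05). At 2 h this was 3 of 9 members lower and 1 of 9 higher, where 5.82% of all genes tested were lower and 4.49% higher. At 4 h it was 5 of 9 lower and 2 of 9 higher, where the shares of all genes were 18.2% and 9.26%. The median change over the members was −0.24 at 2 h and −0.47 at 4 h, beside −0.02 and −0.05 over all genes. When the samples were scaled to a common median, 49.9% of the calls over all genes at Dex 4 h were higher, in place of 33.8%. As in any bulk sample, less RNA per cell and fewer cells that express a gene cannot be told apart.

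HBEGF, the heparin-binding EGF-like ligand, had 84.2 and 45.0 RPKM in the vehicle replicates, with Dex 10.4 and 10.9 at 2 h and 7.82 and 7.13 at 4 h, and with CpdA 85.2 and 78.6 at 2 h and 44.4 and 41.2 at 4 h. All 4 Dex samples lay below every other sample. With Dex the log2 change at 2 h was −2.52 ± 0.22 (SE), with a 95% interval of −3.02 to −2.02, and the level was 0.174 of vehicle (limma, adjusted p = 7.41e-05). At 4 h the change was −3.03 ± 0.22 (SE), or 0.123 of vehicle (limma, adjusted p = 1.04e-05). Against vehicle replicate 1 alone the change was −2.97 at 2 h and −3.48 at 4 h, and against replicate 2 alone −2.07 and −2.58. HBEGF had the widest range of group means among the members, 3.44 on the log2 scale, wider than in 99.6% of the genes kept.

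EREG (epiregulin) had 5.39 and 3.84 RPKM in vehicle, with Dex 1.48 and 1.58 at 2 h and 1.13 and 1.25 at 4 h, and with CpdA 6.05 and 6.16 at 2 h and 6.62 and 6.40 at 4 h. The Dex samples were lowest and the CpdA samples highest, with vehicle between them and no overlap. With Dex it fell to 0.351 of vehicle at 2 h (log2 change −1.51 ± 0.13 SE, limma adjusted p = 7.67e-05) and to 0.277 at 4 h (−1.85 ± 0.13 SE, adjusted p = 9.44e-06).

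TGFA had 18.5 and 15.7 RPKM in vehicle, with Dex 11.2 and 11.6 at 2 h and 6.55 and 7.04 at 4 h, and with CpdA 17.9 and 16.5 at 2 h and 14.8 and 14.1 at 4 h. The Dex groups were the lowest and did not overlap with each other. With Dex it fell to 0.671 of vehicle at 2 h (log2 change −0.58 ± 0.08 SE, limma adjusted p = 0.00134) and to 0.402 at 4 h (−1.32 ± 0.08 SE, adjusted p = 2.83e-06). The further fall from 2 h to 4 h was itself called, at −0.74 (limma, adjusted p = 0.000559).

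NRG1, the ligand of ERBB3, had 5.11 and 7.31 RPKM in vehicle, with Dex 4.48 and 4.26 at 2 h and 3.15 and 3.23 at 4 h, and with CpdA 5.59 and 5.56 at 2 h and 7.12 and 7.51 at 4 h. The 4 Dex samples were the lowest, and vehicle overlapped with both CpdA groups. At Dex 2 h the change was −0.48 ± 0.13 (SE) and not called (limma, adjusted p = 0.056). It was −0.73 against vehicle replicate 2 alone (limma, adjusted p = 0.000357) and −0.22 against replicate 1 alone (adjusted p = 0.126). At Dex 4 h it fell to 0.529 of vehicle (−0.92 ± 0.13 SE, limma adjusted p = 0.000817).

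AREG (amphiregulin) had 1.67 and 1.61 RPKM in vehicle, with Dex 1.33 and 1.42 at 2 h and 1.23 and 1.32 at 4 h, and with CpdA 3.60 and 3.44 at 2 h and 3.50 and 3.87 at 4 h. The CpdA samples lay above all others, and the Dex samples lay a little below vehicle without overlap. The change with Dex was −0.24 ± 0.09 (SE) at 2 h (limma, adjusted p = 0.142), and at 4 h it fell to 0.791 of vehicle (−0.34 ± 0.09 SE, adjusted p = 0.018). The Dex 4 h call was lost without vehicle replicate 1 (limma, adjusted p = 0.0732) and without Dex 4 h replicate 1 (adjusted p = 0.064), as well as with quantile normalization (0.0606) and with only the 4 samples of the contrast (0.184). GRCh37 holds a near copy of AREG, AREGB, at chr4:75480629-75490486. Of the 50-base stretches of the AREG transcript, 95.8% are identical in AREGB, and the AREG window printed above also matches at chr4:75480379-75480628. How the authors' counting shared reads between the copies is not given in the sources used here, so the AREG level is uncertain, and AREGB was not used here.

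**Figure D2:**
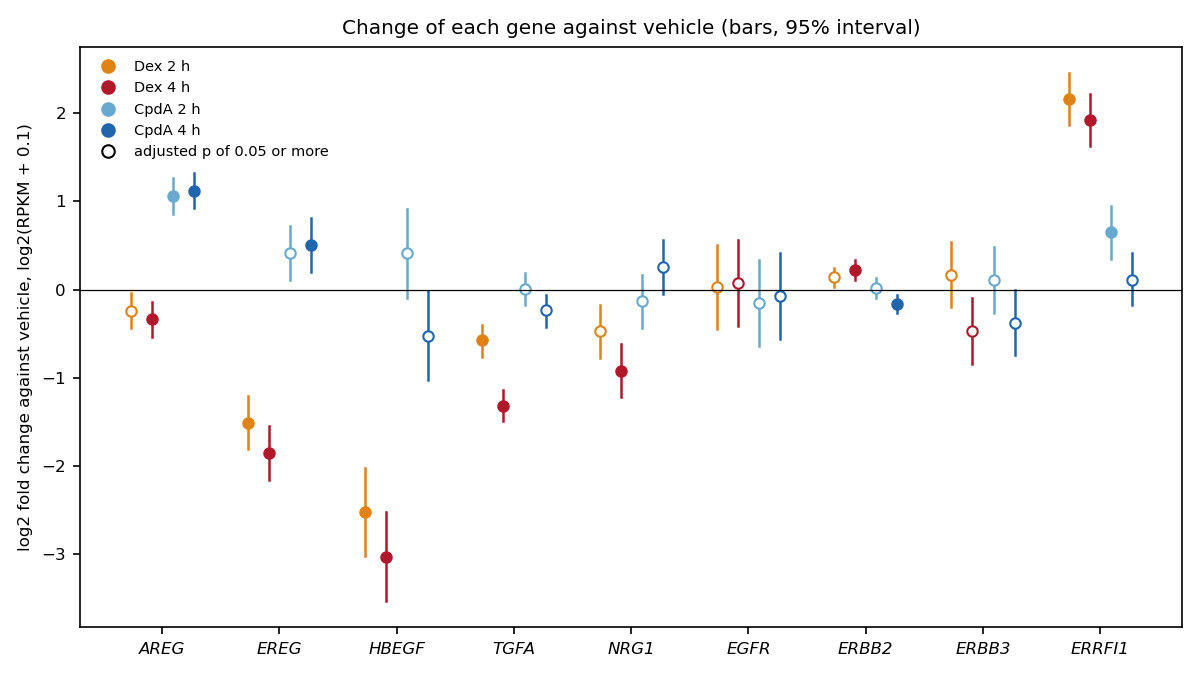
Change of each gene against vehicle (vertical axis, difference of group means on the log2(RPKM + 0.1) scale) for the 4 treatments, with bars for the 95% interval and open circles where the adjusted p is 0.05 or more. With Dex the ligands lie below 0 and ERRFI1 near 2, while with CpdA AREG is the gene farthest from 0, at 1.06 and 1.12.

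Of the receptors, ERBB2 alone was called with Dex. ERBB2 had 18.7 and 17.7 RPKM in vehicle, with Dex 20.3 and 19.8 at 2 h and 21.6 and 20.7 at 4 h, and with CpdA 18.8 and 17.9 at 2 h and 16.4 and 15.9 at 4 h. The Dex samples were highest and CpdA 4 h lowest, over a narrow range. Its rise at Dex 4 h was 0.22 ± 0.05 (SE) on the log2 scale, or 1.17-fold (limma, adjusted p = 0.00832), and was not called with only the 4 samples of the contrast (adjusted p = 0.0958). At Dex 2 h the change was 0.14 (limma, adjusted p = 0.111).

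EGFR had 32.2 and 35.8 RPKM in vehicle, with Dex 33.2 and 36.2 at 2 h and 26.7 and 47.9 at 4 h, and with CpdA 28.5 and 32.5 at 2 h and 31.0 and 33.4 at 4 h. All groups overlapped with vehicle, and the Dex 4 h replicates were the lowest and the highest of the 10 samples. The change with Dex was 0.03 at 2 h (95% interval −0.45 to 0.51) and 0.08 at 4 h (−0.41 to 0.56), neither called (limma, adjusted p = 0.962 and 0.831). At Dex 4 h the value depended on the replicate: it was 0.50 without replicate 1 (limma, adjusted p = 0.0068) and −0.35 without replicate 2 (adjusted p = 0.0247). The Dex 4 h replicates also differed by transcript length. Across the 11664 genes with a length, the Spearman correlation of length with the difference of replicate 1 minus replicate 2 was −0.552 at Dex 4 h and −0.313 to 0.077 in the other groups, given as a description across genes of the same 2 libraries. The median difference was −0.26 in the longest 10% of genes and 0.14 in the shortest, and EGFR, whose longest transcript of 9905 bases exceeds that of 95.3% of genes, differed by −0.84. The part of length in the EGFR values was not tested. The antisense gene EGFR-AS1 lies within EGFR (chr7:55247443-55256670, in EGFR at chr7:55086710-55279321), and whether the counting used strand is not given in the sources used here.

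ERBB3 had 0.832 and 0.675 RPKM in vehicle, with Dex 0.884 and 0.827 at 2 h and 0.456 and 0.575 at 4 h, and with CpdA 0.888 and 0.748 at 2 h and 0.528 and 0.583 at 4 h. Both 4 h groups were below all samples of vehicle and of 2 h. No change of ERBB3 against vehicle was called: it was 0.17 at Dex 2 h, −0.47 at Dex 4 h (limma, adjusted p = 0.0611), 0.11 at CpdA 2 h and −0.38 at CpdA 4 h (adjusted p = 0.144). From Dex 2 h to Dex 4 h it fell by 0.64 on the log2 scale (limma, adjusted p = 0.0332), and from CpdA 2 h to CpdA 4 h the change was −0.48 (adjusted p = 0.0879).

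**Figure D3:**
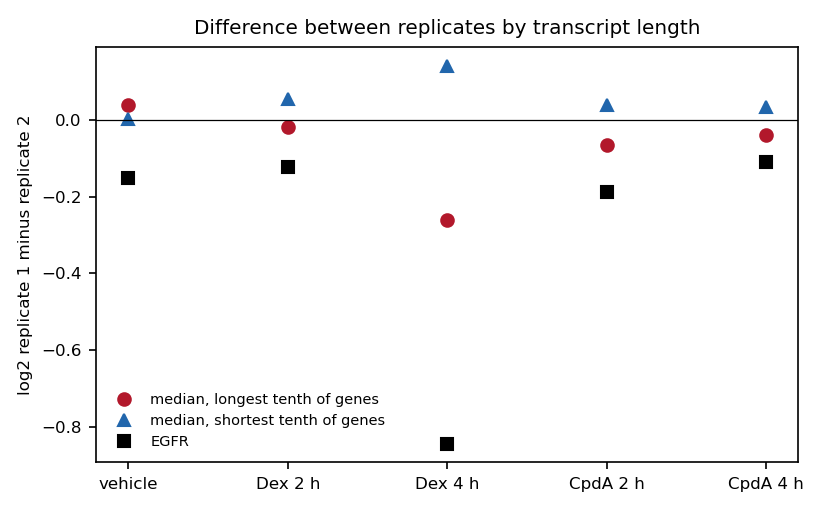
Difference of replicate 1 minus replicate 2 on the log2(RPKM + 0.1) scale (vertical axis) in each group (horizontal axis): median over the longest (red circles) and the shortest (blue triangles) 10% of genes by transcript length, and EGFR (black squares). The medians part most at Dex 4 h, −0.26 against 0.14, where EGFR is at −0.84.

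ERRFI1, the inhibitor of EGFR, had 198 and 138 RPKM in vehicle, with Dex 732 and 745 at 2 h and 603 and 653 at 4 h, and with CpdA 261 and 259 at 2 h and 181 and 177 at 4 h. Every Dex sample lay far above every other sample, CpdA 2 h lay above vehicle, and CpdA 4 h lay between the vehicle replicates. With Dex it rose 4.46-fold at 2 h (log2 change 2.16 ± 0.13 SE, limma adjusted p = 6.26e-06) and 3.79-fold at 4 h (1.92 ± 0.13 SE, adjusted p = 6.22e-06). Against each vehicle sample alone, the rise was 1.90 and 2.42 at 2 h and 1.66 and 2.18 at 4 h. The change from Dex 2 h to Dex 4 h was −0.24 and not called (limma, adjusted p = 0.267). Both later Dex samples nevertheless lay below both earlier ones. The shared variance in that test takes in the spread of the vehicle replicates, with ERRFI1 0.52 higher in replicate 1 on the log2 scale. Between Dex duplicates, replicate 1 minus replicate 2 was only −0.025 for the earlier time and −0.115 for the later. The missing call is therefore no evidence that ERRFI1 stayed level.

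With CpdA, AREG rose at both times, ERRFI1 rose at 2 h, and at 4 h EREG rose and ERBB2 fell. This was 2 of 9 members higher and 0 of 9 lower at 2 h, where 1.89% and 4.29% of all genes were higher and lower, and 2 of 9 higher and 1 of 9 lower at 4 h, where the shares were 6.76% and 13.8%. At an unadjusted p under 0.05, limma had 3 of 9 higher and 0 of 9 lower at 2 h, and 2 higher and 4 lower at 4 h. With scaling to a common median, 44.6% of the calls over all genes were higher at 2 h and 55.8% at 4 h, in place of 30.5% and 33%. The Dex and the CpdA comparisons share the same vehicle samples, and their values are therefore set side by side and not correlated.

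The rise of AREG with CpdA was 2.08-fold at 2 h (log2 change 1.06 ± 0.09 SE, 95% interval 0.86 to 1.26, limma adjusted p = 0.000248) and 2.18-fold at 4 h (1.12 ± 0.09 SE, 0.92 to 1.32, adjusted p = 7.41e-05). Against each vehicle sample alone it was 1.03 and 1.08 at 2 h and 1.10 and 1.15 at 4 h. EREG, its neighbour on chromosome 4, rose 1.42-fold at 4 h (0.51 ± 0.13 SE, limma adjusted p = 0.0275), and at 2 h the change was 0.42 (adjusted p = 0.112). At CpdA 2 h it was 0.18 against vehicle replicate 1 alone (limma, adjusted p = 0.466) and 0.65 against replicate 2 alone, where it was called (adjusted p = 0.00497). EREG at CpdA 4 h was 0.27 against vehicle replicate 1 alone (limma, adjusted p = 0.0796) and 0.75 against replicate 2 alone (adjusted p = 0.00186). The EREG call was also lost without CpdA 4 h replicate 1 or replicate 2 (limma, adjusted p = 0.143 and 0.106).

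As for EREG, the CpdA values of HBEGF, NRG1, ERRFI1 and TGFA turned on which vehicle sample was used. HBEGF was 0.41 at CpdA 2 h and −0.52 at CpdA 4 h, neither called (limma, adjusted p = 0.344 and 0.136). Against vehicle replicate 1 alone it was −0.04 at 2 h and −0.98 at 4 h (adjusted p = 0.000306), and against replicate 2 alone 0.86 at 2 h (limma, adjusted p = 0.000833) and −0.07 at 4 h. For HBEGF, the vehicle sample whose column heading carries the same time thus gave the value near 0 at both times. Against that sample, EREG was 0.18 at 2 h and 0.75 at 4 h, and ERRFI1 0.39 and 0.37. In the same way NRG1 was 0.12 and 0.00, and TGFA −0.11 and −0.12. NRG1 was −0.13 at 2 h and 0.25 at 4 h, neither called. Against replicate 1 alone it was 0.12 at 2 h and 0.51 at 4 h (limma, adjusted p = 0.00261), and against replicate 2 alone −0.39 at 2 h (adjusted p = 0.0142) and 0.00 at 4 h.

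The rise of ERRFI1 at CpdA 2 h was 1.57-fold (0.65 ± 0.13 SE, limma adjusted p = 0.0212). It was 0.39 against replicate 1 alone and 0.91 against replicate 2 alone, and the call was lost without CpdA 2 h replicate 1 or replicate 2 (adjusted p = 0.14 and 0.12). At CpdA 4 h the change was 0.11 (limma, adjusted p = 0.591), −0.14 against replicate 1 alone and 0.37 against replicate 2 alone (adjusted p = 0.00586). TGFA was 0.01 at CpdA 2 h and −0.24 at CpdA 4 h (adjusted p = 0.0655), and EGFR −0.16 and −0.08, none called. Against vehicle replicate 1 alone TGFA was −0.11 at 2 h and −0.35 at 4 h, the latter called (limma, adjusted p = 0.0142), and against replicate 2 alone 0.13 and −0.12 (adjusted p = 0.327 and 0.322). ERBB2 at CpdA 4 h fell to 0.892 of vehicle (−0.17 ± 0.05 SE, limma adjusted p = 0.0406), and was −0.10 and not called after the samples were scaled to a common median (adjusted p = 0.219). Its call was also lost without vehicle replicate 1 (limma, adjusted p = 0.175) or any 1 treated sample outside Dex 4 h (up to 0.217).

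**Figure D4:**
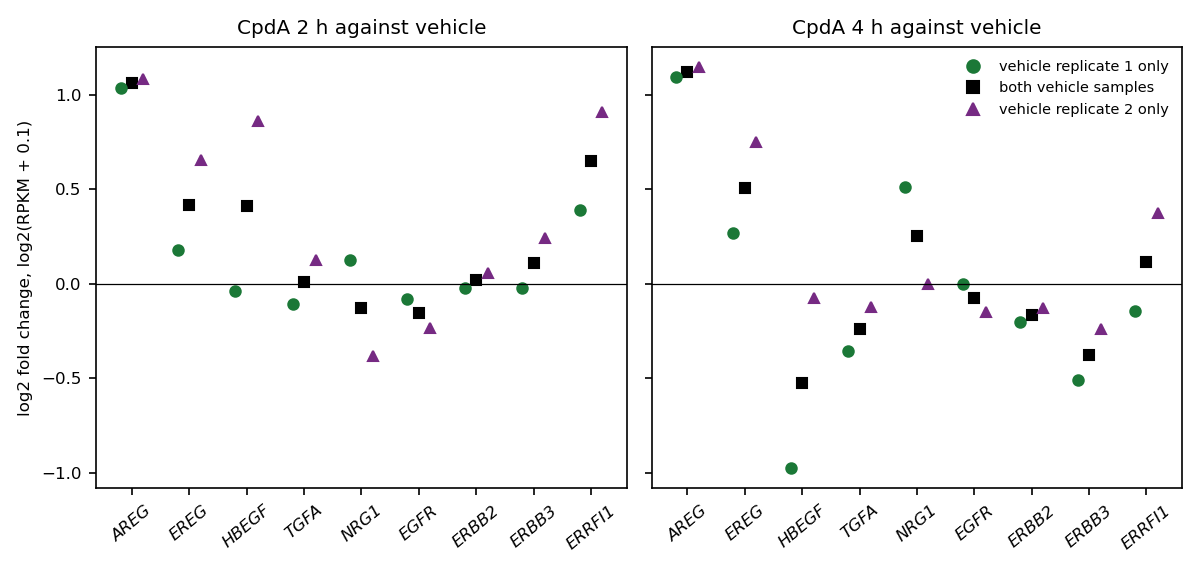
Change of each gene at CpdA 2 h (left) and CpdA 4 h (right) on the log2(RPKM + 0.1) scale (vertical axes), computed against both vehicle samples (black squares), vehicle replicate 1 only (green circles) and vehicle replicate 2 only (purple triangles). AREG stays near 1 in all cases, whereas HBEGF is at −0.04 or 0.86 at 2 h and at −0.98 or −0.07 at 4 h.

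Compared directly, where vehicle takes no part in the difference, Dex and CpdA gave different levels of most members. Vehicle still enters these tests through the variance, which all 5 groups share. At 2 h, 4 of 9 members were lower with Dex and 1 of 9 higher, beside 6.18% and 7.53% of all genes. At 4 h, 5 of 9 were lower and 2 of 9 higher, beside 18% and 15.4%. At 2 h the differences called were −2.93 for HBEGF, −1.93 for EREG, −1.30 for AREG, −0.59 for TGFA and 1.51 for ERRFI1 on the log2 scale (limma, adjusted p from 1.03e-05 to 0.000942). At 4 h they were −2.50 for HBEGF, −2.36 for EREG, −1.46 for AREG, −1.17 for NRG1, −1.08 for TGFA, 0.39 for ERBB2 and 1.81 for ERRFI1 (adjusted p from 1.64e-06 to 0.000266). For these members no Dex sample overlapped with a CpdA sample of the same time. NRG1 at 2 h was −0.345 and not called (limma, adjusted p = 0.142). It was called there with only the 4 samples of the contrast (limma, adjusted p = 0.00481). EGFR and ERBB3 were not called at either time, with 95% intervals at 4 h of −0.33 to 0.64 and −0.47 to 0.27.

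Time within a ligand was compared next. From Dex 2 h to Dex 4 h, 2 of 9 members were lower (TGFA and ERBB3) and 0 of 9 higher, where 9.02% of all genes were lower and 4.55% higher. At an unadjusted p under 0.05, limma had 5 of 9 lower and 0 of 9 higher. With only the 4 samples of the contrast, HBEGF (−0.506, limma adjusted p = 0.0191) and NRG1 (−0.444, adjusted p = 0.0363) were called lower. ERBB3 was then not called (limma, adjusted p = 0.111). From CpdA 2 h to CpdA 4 h, 3 of 9 were lower and 0 of 9 higher, where 7.2% were lower and 5.21% higher, and at an unadjusted p under 0.05, 5 were lower and 1 higher. With scaling to a common median, 53.3% of the calls over all genes between the Dex times and 54.6% between the CpdA times were higher, in place of 33.5% and 42%. With CpdA, HBEGF fell by 0.93 on the log2 scale (limma, adjusted p = 0.0274), ERRFI1 by 0.54 (adjusted p = 0.0298) and ERBB2 by 0.18 (adjusted p = 0.039). Vehicle takes no part in the differences within a ligand, so time alone and a change of the ligand's effect cannot be told apart. From vehicle replicate 1 (headed 2 h) to replicate 2 (headed 4 h), HBEGF fell by 0.90 and ERRFI1 by 0.52. ERBB3 fell there by 0.27, TGFA by 0.23 and ERBB2 by 0.08. A change of the Dex minus CpdA difference from 2 h to 4 h was called in 2 of 9 members, both lower. Of all genes, 3.56% were lower and 3.04% higher. The difference moved by −0.83 for NRG1 (limma, adjusted p = 0.0336) and by −0.49 for TGFA (adjusted p = 0.0346). Not called were −0.435 for EREG, −0.16 for AREG, −0.16 for ERBB3 and −0.04 for EGFR. On the other side, 0.43 for HBEGF, 0.30 for ERRFI1 and 0.26 for ERBB2 were also not called. Vehicle still enters the tests on time through the shared variance. Without either vehicle sample, more members were called in each comparison on time, for this difference in both directions. Of the calls on time in the main fit, the fall of TGFA with Dex was kept in every alternative run, while each of the others was lost without single samples. The call of HBEGF was lost without any 1 of the 4 CpdA samples (limma, adjusted p up to 0.157), and those of ERRFI1 and ERBB2 also without either Dex 2 h sample (up to 0.153 and 0.252). Those of ERBB3, NRG1 and TGFA were lost without any 1 treated sample other than Dex 4 h replicate 2 (up to 0.164, 0.129 and 0.145).

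Genes that act with these members were counted from lists of 8 to 19 tested genes, also chosen with earlier results of these data known. Each count is a description, to be read against the shares of all genes. With Dex, 4.49% of all genes were higher and 5.82% lower at 2 h, and 9.26% higher and 18.2% lower at 4 h. With CpdA, the shares were 1.89% higher and 4.29% lower at 2 h, and 6.76% higher and 13.8% lower at 4 h. The median change over all genes was −0.02 and −0.05 with Dex at 2 h and 4 h, and −0.02 and −0.04 with CpdA. Of 8 tested genes for ligand shedding, 0 were higher and 1 lower at Dex 2 h, and 2 higher and 2 lower at Dex 4 h. At an unadjusted limma p under 0.05, 3 were higher and 1 lower at Dex 2 h, and 2 higher and 3 lower at Dex 4 h. At Dex 2 h, 1 was called higher with median scaling, with quantile normalization and with the replicate block. The number called higher there also rose in some fits that left out 1 sample. TIMP3, an inhibitor of ADAM17, fell by 0.19 at Dex 2 h and by 0.71 at Dex 4 h, and the protease ADAM15 rose by 0.34 at 4 h. The 1 lower gene at Dex 2 h became 0 in 7 of the 10 fits that left out 1 sample (those without vehicle replicate 1 or any Dex 2 h or CpdA sample), and also without the filter, without the trend, with median scaling and with only the 4 samples. At Dex 4 h, the number higher, the number lower or both became 1 in each of the 10 fits that left out 1 sample. With CpdA, 0 were called at 2 h (0 higher and 1 lower at an unadjusted limma p under 0.05) and 3 were lower at 4 h, among them RHBDF1 (−0.37), a partner of ADAM17. The 3 lower genes became 0 with median scaling and without either CpdA 4 h sample, and 1 without vehicle replicate 2, without any 1 Dex 2 h or CpdA 2 h sample, without the filter, with quantile normalization and with only the 4 samples. ADAM17, singled out after its values were seen, was at 0.20 and 0.12 with Dex and −0.03 and 0.21 with CpdA, and was not called. The median over the list was 0.02 and 0.05 with Dex and 0.00 and −0.07 with CpdA.

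Of 19 genes for the signalling steps just below the receptors, 1 was higher and 0 lower at Dex 2 h, and 8 were higher and 0 lower at Dex 4 h. At an unadjusted limma p under 0.05, 2 were lower at each time. The exchange factor SOS1 rose with Dex by 0.59 and 0.66 at the earlier and the later time, and the adaptor GAB1 rose by 0.43 at Dex 4 h. With CpdA, 1 of 19 was lower at each time, the exchange factor SOS2 (−0.49 and −0.33), and 2 of 19 without either Dex 4 h sample. The list's median was 0.05 and 0.09 with Dex and −0.07 and −0.02 with CpdA. Without Dex 4 h replicate 2, the counts at Dex 4 h were 7 higher and 4 lower. The 8 higher genes became 5 without vehicle replicate 1 and 3 with only the 4 samples. The 1 higher gene at Dex 2 h became 0 without vehicle replicate 2 or either Dex 2 h sample, and 3 without either Dex 4 h sample.

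Of 16 genes that remove the receptors or damp RAS and ERK signalling, 1 was higher and 6 lower at Dex 2 h, and 1 higher and 8 lower at Dex 4 h. The gene that rose was SPRY4, by 1.65 and 1.15, whereas RASA1, a RAS GTPase-activating protein, fell by 0.27 and 1.05, and SPRED3 by 0.57 and 0.67. LRIG3 fell by 0.78 at 2 h. The list's median was −0.17 and −0.38 with Dex and −0.11 and −0.18 with CpdA. The 6 lower genes at Dex 2 h became 2 without Dex 2 h replicate 1, 3 with only the 4 samples. The 8 lower genes at Dex 4 h became 13 without Dex 4 h replicate 2 and 7 without replicate 1. With CpdA, 1 was higher and 3 lower at 2 h, and 1 higher and 5 lower at 4 h. At CpdA 2 h, 0 were higher and 2 lower without the filter and with only the 4 samples of the contrast. SPRY1 fell by 0.63 and 1.32, SPRY4 by 0.98 at 4 h, and the ubiquitin ligase CBLB rose by 0.59 at 4 h. At CpdA 2 h, the 3 lower genes became 1, and the 1 higher became 0, without vehicle replicate 2 or either CpdA 2 h sample, and 6 were lower without either Dex 4 h sample. The change of SPRY4 at 4 h was thus 1.15 with Dex and −0.98 with CpdA.

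Of 10 genes known to follow ERK activity, 2 were higher and 6 lower at Dex 2 h, and 1 higher and 7 lower at Dex 4 h, with medians of −0.43 and −0.61. PHLDA1 fell by 1.03 and 1.54 and the ERK phosphatase DUSP4 by 1.17 and 1.21, and at 4 h SPRY4 rose by 1.15. With CpdA, 1 was higher (SPRY2, by 0.47) and 2 lower at 2 h (median −0.07), and 0 were higher and 7 lower at 4 h (median −0.40; 0 higher and 9 lower at an unadjusted limma p under 0.05). At CpdA 2 h, 0 were higher without the filter and with only the 4 samples of the contrast. The SPRY2 call was also lost against vehicle replicate 1 alone, the sample headed 2 h. Without CpdA 4 h replicate 1 the 7 lower genes became 4. The 6 lower at Dex 2 h were 4 without Dex 2 h replicate 1 and 4 with only the 4 samples, and the 2 higher there were 1 without Dex 2 h replicate 2. At CpdA 2 h, the 2 lower and the 1 higher were 1 and 0 without either CpdA 2 h sample. With CpdA at 2 h and 4 h, DUSP6, the phosphatase of ERK in the cytoplasm, fell by 0.51 and 1.42. CCND1, cyclin D1, fell with CpdA by 0.39 and 0.65, and EPHA2 by 0.77 at 4 h. With Dex, mean DUSP6 was 86.6 and 71.0 RPKM, above the 63.5 of vehicle. Mean CCND1 with Dex was 204 and 156 RPKM, below the 311 of vehicle. SPRY2 and SPRY4 belong to this list and to the one before. ERK activity itself was not measured.

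**Figure D5:**
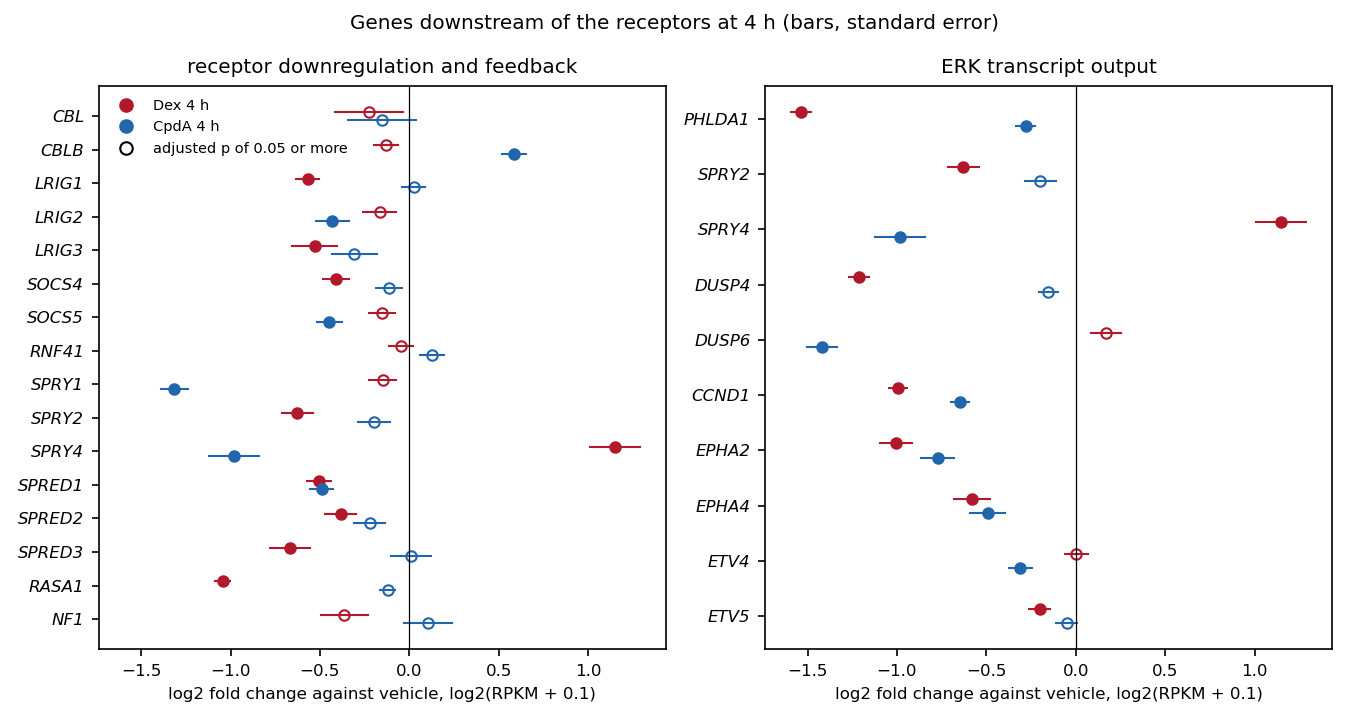
Change at 4 h against vehicle on the log2(RPKM + 0.1) scale (horizontal axes) of the genes for receptor downregulation and feedback (left, 16 genes) and ERK transcript output (right, 10 genes), for Dex in red and CpdA in blue, with bars for the standard error and open circles where the adjusted p is 0.05 or more. PHLDA1, DUSP4 and RASA1 lie low with Dex, DUSP6 and SPRY1 with CpdA, and SPRY4 lies at 1.15 with Dex and at −0.98 with CpdA.

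The genes whose log2 levels most resembled those of the ligand, receptor and inhibitor with the widest range were found by Pearson's r over the 10 samples, which fall into 5 treatment groups, and are a description. HBEGF was closest to PDP1 (r = 0.995), FOSL1 (0.994) and DLC1 (0.992). FOSL1, an AP-1 subunit, had means of 333 RPKM in vehicle, 122 at Dex 2 h, 84.5 at Dex 4 h, 371 at CpdA 2 h and 274 at CpdA 4 h. ERRFI1 was closest to ELL2 (r = 0.991), RHOB (0.989) and the clock gene PER1 (0.986), which had means of 1.67 RPKM in vehicle, 36.4 and 37.6 with Dex, and 3.91 and 2.95 with CpdA at 2 h and 4 h. ERBB3, near the lower limit of the genes kept, had r = 0.978 with ICE2 and 0.966 with ATP8A1.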

How the data were processed

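RNA was sequenced from 10 samples of MDA-MB-231 cells, and 12 further samples of the series are chromatin assays not used here. The authors made single-end libraries, aligned the reads with TopHat and estimated transcript abundances in Partek Genomics Suite, and deposited RPKM per gene symbol. The submitters' processing notes name TopHat2 2.0.13, Bowtie, Partek 6.6 and hg19. How transcripts were combined into symbols, and whether strand was used, is not given in the sources used here. RPKM keeps no read totals, so no interval from counts is given.

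Groups came from the sample labels. RPKM values were transformed to log2(RPKM + 0.1), which understates changes of low genes, and genes reaching 0.5 RPKM in fewer than 2 samples were dropped, leaving 12713 of 20668. The model had 5 group means and used limma 3.58.1 under R 4.3.3, with eBayes and an abundance trend, p-values were two-sided, and Benjamini-Hochberg adjustment covered all genes kept. Genes with adjusted p under 0.05 were called. Intervals are 95%, and they and the SEs come from the limma fit. That fit takes 1 variance per gene over all 5 groups, moderated toward the abundance trend. An SE is therefore not the spread of only the groups compared. Each group has 2 replicates, which the methods call biological. For 1 gene, an exact permutation of 2 against 2 samples cannot reach p under 0.05, and none is given. The script was tested on simulated data. Alternatives were pseudocounts of 1 and 0.01, no filter, a mean RPKM of at least 1, median scaling, quantile normalization, no trend, only the 4 samples of a contrast, a replicate block and leaving out each sample; list counts under these were added after seeing the data.

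The members and lists were chosen with earlier results of these data known. Named are the 9 members, up to 3 called genes per list and contrast with vehicle by size of change, TSC22D3 and FKBP5, and the 3 genes most correlated with the ligand, receptor and inhibitor of widest range. Some genes that this rule names are not reported here. Positions and lengths came from a GENCODE annotation on GRCh37, lengths matching 91.7% of genes kept. Python 3.11.15, pandas 2.3.3, numpy 2.4.6, scipy 1.17.1 and matplotlib 3.10.9 were used.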

Additional observations from a re-analysis of the deposited data

Results flagged for a closer look

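Changes between 2 h and 4 h within 1 ligand, and of the difference between ligands, were singled out, each by its own limma test. The changes within a ligand involve no vehicle sample, so time alone and a change of the ligand's effect cannot be told apart. With Dex, the change from 2 h to 4 h was −0.74 for TGFA (adjusted p = 0.000559) and −0.64 for ERBB3 (adjusted p = 0.0332) on the log2 scale. With CpdA it was −0.93 for HBEGF (adjusted p = 0.0274), −0.54 for ERRFI1 (adjusted p = 0.0298) and −0.18 for ERBB2 (adjusted p = 0.039). The difference of Dex minus CpdA changed between the times by −0.49 for TGFA (adjusted p = 0.0346) and by −0.83 for NRG1 (adjusted p = 0.0336). Both replicates at 4 h lay on the same side of both replicates at 2 h in each of the 5 changes within a ligand. No group had the 4 or more samples needed to look for a sample far from the rest.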

How the results depend on the processing

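Counts of members called differed from the main counts by more than 1.5 times in 5 comparisons. At CpdA 2 h (2 called) the count was 1 without the filter, without the trend and with only the 4 samples of the contrast. At CpdA 4 h (3 called) it was 1 without the filter and with only the 4 samples. Between the Dex times (2 called) it was 1 without the filter and with a mean RPKM of at least 1, a filter that dropped ERBB3. Between the CpdA times (3 called) it was 0 without the filter and without the trend, and 6 with only the 4 samples. For the difference between times of Dex minus CpdA (2 called) it was 0 without the filter and without the trend. Leaving out 1 sample at a time, the counts ranged from 4 to 5 at Dex 2 h, 6 to 9 at Dex 4 h, 1 to 5 at CpdA 2 h, 1 to 5 at CpdA 4 h, 1 to 6 between the Dex times, 0 to 5 between the CpdA times and 0 to 6 for the difference between times. The counts for Dex against CpdA stayed from 5 to 6 at 2 h and 7 to 8 at 4 h.

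Signs turned only on leaving out 1 sample. For EGFR the values then ranged from −0.046 to 0.11 at Dex 2 h, −0.35 to 0.50 at Dex 4 h, −0.15 to 0.001 at CpdA 4 h, −0.27 to 0.57 for Dex against CpdA at 4 h, −0.38 to 0.47 between the Dex times, −0.012 to 0.18 between the CpdA times and −0.46 to 0.39 for the difference between times. At CpdA 2 h they ranged from −0.041 to 0.86 for HBEGF, −0.11 to 0.13 for TGFA, −0.39 to 0.12 for NRG1, −0.021 to 0.058 for ERBB2 and −0.025 to 0.24 for ERBB3. ERRFI1 at CpdA 4 h ranged from −0.14 to 0.37, ERBB3 for Dex against CpdA from −0.049 to 0.17 at 2 h and −0.24 to 0.043 at 4 h, and AREG between the CpdA times from −0.008 to 0.13. Of the changes of single genes under the alternatives, 1371 kept direction and side of the threshold, 78 fell short of it and 48 newly passed it. The cause was not tested.

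Replicate numbers paired the samples weakly and unevenly: deviations of same-numbered samples correlated from −0.0568 to 0.198 over pairs of groups. Calls over all genes rose in every comparison with the replicate block. At Dex 4 h they were 1294 higher and 2469 lower, in place of 1177 and 2310. With the replicate block, ERBB2 was also called at Dex 2 h (adjusted p = 0.0397) and for the difference between times (adjusted p = 0.022), and no other member's call changed. The 4-sample alternative could not be run for the difference between times, which uses 8 samples. With the groups' 2 replicates and no read totals, small changes of ERBB3 and of EGFR could not be resolved.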
